A study of Mus musculus with 24 samples.

Results

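Expression of 10 vascular genes was followed in CD45+ cells taken from tumors of 24 mice. The genes were chosen by symbol, as a set of endothelial surface molecules, receptors and ligands of vessel growth and leukocyte adhesion molecules, and all 10 were found among the 16996 genes measured. They are Pecam1, Cdh5 and Emcn on the endothelial surface, the receptors Kdr, Flt1 and Tek, the ligands Vegfb and Vegfc, and the adhesion molecules Vcam1 and Icam1.

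All mice were female wild-type Balb/c animals of 10 to 12 weeks that carried EMT6-hHER2 tumors in the mammary fat pad. EMT6-hHER2 is a murine breast cancer line made to express the human receptor HER2 and grown from a single sorted cell, so every tumor came from 1 clone. When tumors reached 80 mm3, 6 mice were left without injection and 6 each received 1 intravenous injection. The dose was 20 mg/kg for trastuzumab, 15 mg/kg for T-DM1 and 1 mg/kg for T-PNU, and tumors were taken on day 10. Trastuzumab is an antibody against HER2, T-DM1 is the same antibody carrying a microtubule poison, and T-PNU carries a derivative of the anthracycline PNU-159682. The conjugates were therefore given at different doses, and any difference between them is one of agent and dose together. The labels give no tumor size at harvest. The study's methods give a volume at harvest for T-PNU tumors that was below 80 mm3, and a legend gives it as an average without a group. In the study's efficacy experiments trastuzumab and T-DM1 did not prevent tumor growth. A difference between groups and one in tumor size on that day therefore cannot be told apart. Tumors were digested, CD45+ cells, that is leukocytes, were enriched with magnetic beads, and RNA of 1 mouse made 1 library. The column headings carry a number that the labels do not explain. It runs in a separate series for the untreated group, and T-PNU libraries are numbered apart from those of trastuzumab and T-DM1, which follow each other. Each group has its own run, so this numbering and the treatment cannot be told apart.

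Endothelial cells line blood vessels and are held together by the cadherin that Cdh5 encodes, while Pecam1 and Emcn encode further proteins of their surface. Vascular endothelial growth factors act on these cells through the tyrosine kinase receptors Kdr and Flt1, and angiopoietins act through Tek, the receptor that steadies vessels. In inflamed tissue, Icam1 and Vcam1 hold leukocytes through their integrins and let them leave the blood. Pecam1, Icam1 and Flt1 are also made by leukocytes, whereas endothelial cells carry little or no CD45. In RNA of mixed cells, fewer cells of a type and less RNA per cell cannot be told apart.

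The RefSeq table of promoters on GRCm38.p6 held 7 of the 10 members, and 5 of them are shown, for Emcn and Tek and for Kdr and Flt1, pairs whose levels varied together, and for Icam1. The 250 bases before the start site are printed 5′ to 3′ on the strand of the gene. Capitals mark matches on either strand to AGGAAG (reverse complement CTTCCT), the core bound by ETS factors, to TGACGTCA, the cAMP response element, and to GGAAATTCC (reverse complement GGAATTTCC), a sequence bound by NF-kB. The regions were chr3:137340828-137341077 on the plus strand for Emcn, chr4:94739039-94739288 on the plus strand for Tek, chr5:75978456-75978705 on the minus strand for Kdr, chr5:147726012-147726261 on the minus strand for Flt1 and chr9:21015690-21015939 on the plus strand for Icam1.
Emcn: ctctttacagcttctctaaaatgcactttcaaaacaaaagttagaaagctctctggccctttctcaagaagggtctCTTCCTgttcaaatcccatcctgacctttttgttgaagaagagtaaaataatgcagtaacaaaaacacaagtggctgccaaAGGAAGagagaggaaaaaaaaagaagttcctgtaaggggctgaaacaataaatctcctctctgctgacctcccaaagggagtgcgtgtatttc
Tek: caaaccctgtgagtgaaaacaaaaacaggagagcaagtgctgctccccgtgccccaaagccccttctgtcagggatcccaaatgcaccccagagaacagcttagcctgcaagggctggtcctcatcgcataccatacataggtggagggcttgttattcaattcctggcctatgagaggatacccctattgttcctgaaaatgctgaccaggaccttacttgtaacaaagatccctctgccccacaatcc
Kdr: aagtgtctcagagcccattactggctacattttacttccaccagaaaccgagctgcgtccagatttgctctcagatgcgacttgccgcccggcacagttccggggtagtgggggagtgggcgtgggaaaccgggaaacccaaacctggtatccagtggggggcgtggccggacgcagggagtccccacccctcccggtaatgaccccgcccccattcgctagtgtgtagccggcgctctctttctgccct
Flt1: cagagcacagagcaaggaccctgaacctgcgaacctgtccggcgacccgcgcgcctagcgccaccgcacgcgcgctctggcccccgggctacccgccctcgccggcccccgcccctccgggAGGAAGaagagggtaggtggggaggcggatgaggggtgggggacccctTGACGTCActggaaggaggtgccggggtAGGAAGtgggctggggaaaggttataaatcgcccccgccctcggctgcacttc
Icam1: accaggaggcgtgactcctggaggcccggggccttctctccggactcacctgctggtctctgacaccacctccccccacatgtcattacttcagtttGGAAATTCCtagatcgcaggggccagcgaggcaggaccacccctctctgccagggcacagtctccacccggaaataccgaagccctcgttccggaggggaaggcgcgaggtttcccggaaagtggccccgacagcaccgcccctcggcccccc
The Emcn window held 2 matches to AGGAAG, 1 of them on the opposite strand, and the Flt1 window held 2 on its own strand. Flt1 also held 1 match to TGACGTCA, starting at position -81 relative to the start site, and Icam1 held 1 match to GGAAATTCC. Of the 32851 promoters in the table, cut to the same length, 29.5% held AGGAAG, 1.55% TGACGTCA and 0.286% GGAAATTCC. These matches describe letters in the windows, and the windows of Tek and Kdr, and of Vegfb and Vegfc, which are not printed, held none of them.

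Values were deposited after normalization for library size on a log2 scale, and the name of the transformation is not given in the sources used here. Sample medians ran from 8.73 to 8.87, so libraries were on a common scale, but the number of reads behind a value is unknown. No 2 libraries were duplicates, since even the closest pair differed by 0.203 on the log2 scale (root mean square over genes). The heatmaps of the study leave out 4 libraries, E2 and B3 of the trastuzumab group and B1 and C1 of the untreated group, and the counts of members called in comparisons with a conjugate are also given without them. Differences were tested with limma over all genes and all 24 libraries, with p-values adjusted by the Benjamini-Hochberg method over all genes, and a gene was called at an adjusted p under 0.05.

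Over the 24 libraries Icam1 and Vcam1 were the most abundant members and Vegfc the least. Divided by the length of the exons, mean levels over 24 libraries on the log2 scale per kilobase were 11.67 for Icam1, 9.74 for Vcam1, 8.77 for Pecam1, 8.27 for Vegfb, 7.57 for Kdr, 6.52 for Cdh5, 5.74 for Flt1, 4.78 for Emcn, 3.97 for Tek and 3.70 for Vegfc. In T-DM1 libraries Vegfb stood above Pecam1 (8.58 and 8.45) and Vegfc above Tek (3.73 and 3.50). In T-PNU libraries Kdr stood above Vegfb (8.02 and 7.93), so the order of these neighbours changed with the group. The means of Tek and Vegfc lay closer together than the SD of Tek in the trastuzumab group (0.56, n = 6). Against all genes, without correction for length, Icam1 stood above 97.9% of genes, Cdh5 above 47.9% and Tek above 31.1%. Thus Icam1, Vcam1 and Pecam1 stood far above the endothelial genes Cdh5, Emcn and Tek.

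**Figure D1:**
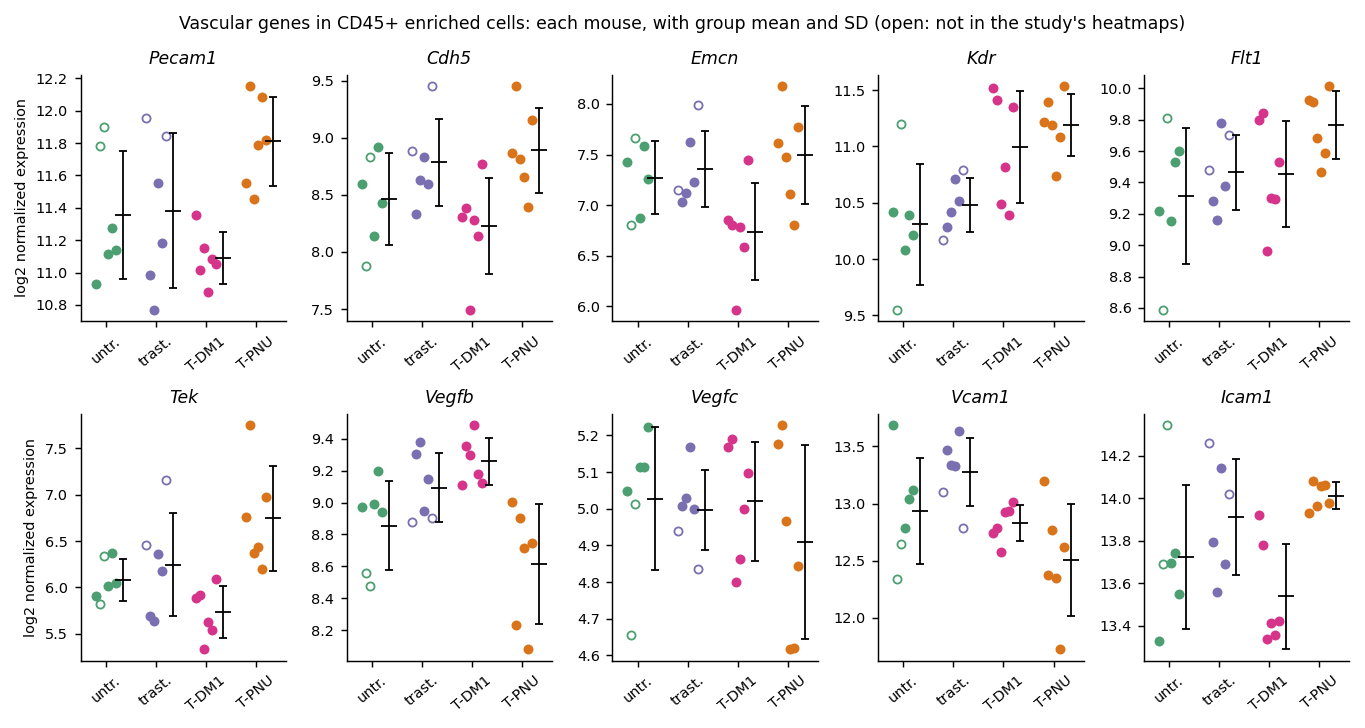
Log2 normalized expression (vertical axes, a separate range for each gene) of the 10 genes in each of 24 mice, by group (untreated, trastuzumab, T-DM1, T-PNU). Points are mice, open points are the 4 libraries absent from the study's heatmaps, and bars give the mean and SD (n = 6). T-PNU points lie above all T-DM1 points for Pecam1, Tek and Icam1 and below them for Vegfb.

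T-PNU against T-DM1 was the comparison with the most members called, and the single such comparison over 24 libraries. Of the 10 members, 5 were higher after T-PNU (Tek, Emcn, Pecam1, Cdh5 and Icam1) and 1 was lower (Vegfb), on a background of 29.8% of all genes called, 12.4% higher and 17.4% lower. The median difference of the members was 0.39 on the log2 scale, against 0.03 over all genes. The receptor Tek had the largest difference, 2.02-fold, and was the 1 member past the stricter thresholds of the study (adjusted p under 0.01 and a fold above 2), which 1.91% of all genes passed. The adhesion molecule Icam1 had the smallest difference of those called, 1.39-fold.

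Pecam1 (chr11:106654217-106750628, ENSMUSG00000020717), an adhesion molecule at endothelial junctions and on leukocytes, lay between 11.46 and 12.15 in T-PNU libraries with a median of 11.81. In T-DM1 libraries it lay between 10.88 and 11.35 with a median of 11.07. The groups did not overlap, and the T-DM1 group was tight while untreated and trastuzumab libraries covered much of the range of both. The log2 difference was 0.72 (SE 0.19), or 1.65-fold, with a limma adjusted p of 0.00847. Cdh5 (chr8:104101625-104144511, ENSMUSG00000031871), the cadherin of endothelial junctions, ran from 8.39 to 9.45 after T-PNU (median 8.84) and from 7.49 to 8.77 after T-DM1 (median 8.29). These ranges overlapped, and the lowest value belonged to T-DM1 library E3. The log2 difference of Cdh5 was 0.66 (SE 0.22, limma adjusted p = 0.0256). Without T-PNU H1, T-PNU D2 or T-DM1 E3 the call was lost, with an adjusted p of up to 0.0788. Emcn (chr3:137341067-137432185, ENSMUSG00000054690), a sialomucin of venous and capillary endothelium, ran from 6.81 to 8.18 after T-PNU (median 7.55) and from 5.96 to 7.44 after T-DM1 (median 6.80). Its groups overlapped as well, with the highest value in H1 and the lowest in E3. The log2 difference of Emcn was 0.75 (SE 0.24, limma adjusted p = 0.0209), and it lost the call without either of these libraries, with an adjusted p of up to 0.0673.

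Of the 3 receptors, Tek passed the test and Kdr and Flt1 did not. Tek (chr4:94739289-94874976, ENSMUSG00000006386), the angiopoietin receptor, ran from 6.20 to 7.75 after T-PNU (median 6.60) and from 5.33 to 6.09 after T-DM1 (median 5.76). The lowest T-PNU library, C2, was above the highest T-DM1 library, H3. Its log2 difference was 1.02 (SE 0.24, limma adjusted p = 0.00488) and ranged from 0.82 to 1.13 when each library was left out in turn, called in 24 of 24 fits. Kdr (chr5:75932827-75978458, ENSMUSG00000062960), the main signalling receptor for VEGF, ran from 10.73 to 11.54 after T-PNU (median 11.20) and from 10.39 to 11.52 after T-DM1 (median 11.09). These groups covered almost the same range, and the log2 difference was 0.19 (95% interval -0.27 to 0.66, limma adjusted p = 0.512). Flt1 (chr5:147561604-147726011, ENSMUSG00000029648), which binds VEGF, placental growth factor and Vegfb, ran from 9.46 to 10.02 after T-PNU (median 9.80) and from 8.96 to 9.84 after T-DM1 (median 9.42). Its log2 difference was 0.31 (95% interval -0.05 to 0.68, limma adjusted p = 0.174). The intervals of Kdr and Flt1 allow for differences as large as that of Icam1 (0.47).

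Of the ligands, Vegfb was lower after T-PNU and Vegfc did not pass the test. Vegfb (chr19:6982473-6987651, ENSMUSG00000024962), a ligand of Flt1, ran from 8.08 to 9.01 after T-PNU (median 8.73) and from 9.11 to 9.49 after T-DM1 (median 9.24). No T-PNU library reached the lowest T-DM1 library, and C2 was the lowest of all 24. Vegfb after T-PNU was 0.64 lower than after T-DM1 on the log2 scale (SE 0.15, limma adjusted p = 0.00443), or 1.56-fold. It was called in 24 of 24 fits that left out a library. Vegfc (chr8:54077606-54187096, ENSMUSG00000031520), the lymphatic growth factor, ran from 4.62 to 5.23 after T-PNU (median 4.90) and from 4.80 to 5.19 after T-DM1 (median 5.05). It had the narrowest range of the 10 members, and its log2 difference was -0.11 (95% interval -0.35 to 0.12, limma adjusted p = 0.454).

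Of the adhesion molecules, Icam1 passed the test and Vcam1 did not. Icam1 (chr9:21015985-21028817, ENSMUSG00000037405), a ligand of the leukocyte integrin LFA-1, ran from 13.93 to 14.08 after T-PNU (median 14.02) and from 13.34 to 13.92 after T-DM1 (median 13.42). T-PNU libraries were close together, with an SD of 0.06 (n = 6) against 0.25 to 0.34 in the other groups, and lay just above the highest T-DM1 library, C3. Its log2 difference was 0.47 (SE 0.14, limma adjusted p = 0.0160). Vcam1 (chr3:116109949-116129688, ENSMUSG00000027962), the ligand of the integrin VLA-4, ran from 11.72 to 13.20 after T-PNU (median 12.50) and from 12.58 to 13.01 after T-DM1 (median 12.85). T-PNU libraries spread on both sides of the T-DM1 group, and the log2 difference was -0.33 (95% interval -0.75 to 0.10, limma adjusted p = 0.227). The 4 members without overlap were Tek, Icam1 and Pecam1 (higher; 5.45% of all genes) and Vegfb (lower; 7.73% of all genes), each with a two-sided exact permutation p of 0.00216, the smallest that 6 against 6 libraries can give.

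**Figure D2:**
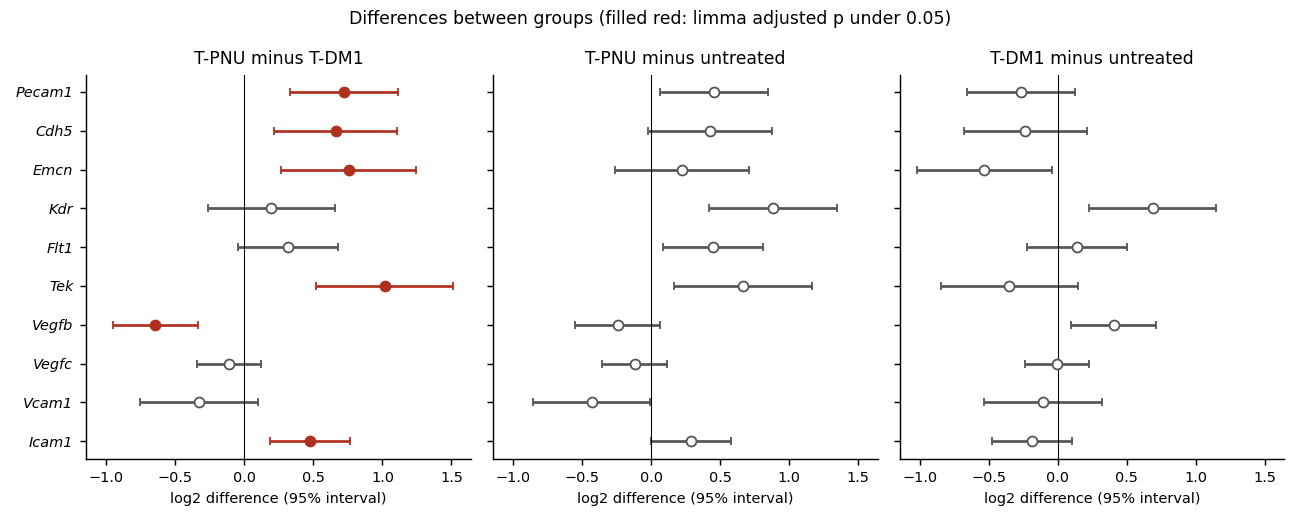
Log2 differences between groups (horizontal axis) for the 10 genes with 95% intervals from limma over 24 libraries, for T-PNU minus T-DM1, T-PNU minus untreated and T-DM1 minus untreated. Filled red points have an adjusted p under 0.05. They number 6 in the first panel and 0 in the others, where Kdr has the largest difference in both (0.88 and 0.69).

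Against untreated tumors no member was called after T-PNU, after T-DM1 or after trastuzumab when all 24 libraries were used. Few genes were called there at all, 0.188%, 6.27% and 0.259% of all genes respectively. At an unadjusted limma p under 0.05, 5, 3 and 0 members were counted, against 24.8%, 23.4% and 8.77% of all genes. An exact permutation p under 0.05 was found for 4, 4 and 0 members, against 17.4%, 23.5% and 7.07% of all genes. Untreated libraries were spread widely, from 9.55 (B1) to 11.20 (C1) for Kdr with a median of 10.30, and B1 and C1 are absent from the heatmaps.

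Kdr came nearest to a call after both conjugates. The difference between T-PNU and untreated libraries was 0.88 on the log2 scale (SE 0.22, limma adjusted p = 0.0631, exact permutation p = 0.00866), or 1.84-fold. Between T-DM1 and untreated libraries it was 0.69 (SE 0.22, limma adjusted p = 0.0635, exact permutation p = 0.0455), and between trastuzumab and untreated libraries 0.17 (SE 0.22, limma adjusted p = 0.911). Trastuzumab libraries ran from 10.17 to 10.79 with a median of 10.47. Hence the medians of both conjugate groups lay above the highest trastuzumab library, and among untreated libraries C1 alone was as high. The difference of Kdr from untreated passed the threshold for T-PNU without untreated C1, T-PNU G1 or trastuzumab E2 (smallest adjusted p = 0.00412) and for T-DM1 without C1 or T-DM1 G3 (smallest adjusted p = 0.0246). These comparisons share their untreated libraries, so the values are not independent of each other.

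Untreated and trastuzumab libraries gave the levels against which the conjugates can be read. Pecam1 ran from 10.93 to 11.90 in untreated (median 11.21) and from 10.77 to 11.96 in trastuzumab libraries (median 11.37), and its highest values in both groups, C1 and E2, were libraries absent from the heatmaps. Cdh5 ran from 7.88 to 8.92 (median 8.51) and from 8.33 to 9.45 (median 8.73), and Emcn from 6.81 to 7.66 (median 7.34) and from 7.03 to 7.99 (median 7.19). For both genes trastuzumab B3 was the highest of these libraries and untreated B1 the lowest. Tek ran from 5.82 to 6.37 in untreated (median 6.03) and from 5.64 to 7.16 in trastuzumab libraries (median 6.27), and Flt1 from 8.59 to 9.81 (median 9.37) and from 9.16 to 9.78 (median 9.43). The untreated group was thus the narrowest for Tek, with an SD of 0.23 (n = 6), and the widest for Flt1, with an SD of 0.43. Vegfb ran from 8.48 to 9.20 in untreated (median 8.96) and from 8.88 to 9.38 in trastuzumab libraries (median 9.05), and Vegfc from 4.66 to 5.22 (median 5.08) and from 4.84 to 5.17. Vcam1 ran from 12.34 to 13.69 in untreated libraries (median 12.91), and Icam1 from 13.33 to 14.34 in untreated (median 13.69) and from 13.56 to 14.26 in trastuzumab libraries (median 13.91). Every member overlapped between these 2 groups, with differences from -0.03 for Vegfc to 0.34 for Vcam1 (trastuzumab minus untreated).

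For the other members the differences between T-PNU and untreated libraries were 0.67 (SE 0.24) for Tek, 0.45 for Pecam1, 0.45 for Flt1, 0.43 for Cdh5, 0.29 for Icam1 and 0.22 for Emcn, and -0.12 for Vegfc, -0.24 for Vegfb and -0.43 for Vcam1. The differences between T-DM1 and untreated libraries were 0.40 for Vegfb and 0.14 for Flt1, and -0.53 for Emcn, -0.35 for Tek, -0.27 for Pecam1, -0.24 for Cdh5, -0.19 for Icam1, -0.11 for Vcam1 and -0.01 for Vegfc. None of these passed the test. For Tek, Emcn, Pecam1, Cdh5, Icam1 and Vegfb the untreated mean thus lay between the conjugates. Their called differences joined a positive and a negative difference from untreated, neither called by itself. For Vegfb the T-DM1 part was the larger (0.40, against -0.24 after T-PNU).

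The study's methods describe a search for outliers by similarity of expression, and why these 4 libraries are absent from the heatmaps is not given in the sources used here. Without them, T-PNU and untreated libraries differed in 6 members. Pecam1 (0.70), Kdr (0.92), Tek (0.66) and Icam1 (0.43) were higher and Vcam1 (-0.65) and Vegfb (-0.41) lower on the log2 scale, on a background of 31.1% of all genes called. The limma adjusted p of these 6 ran from 0.00432 for Pecam1 to 0.0453 for Vegfb. The untreated SD of every member was smaller in the 4 libraries left, for Kdr 0.16 against 0.54 with 6. If libraries were left out for their expression, p-values over the 20 tend to be too small. In the same 20 libraries T-DM1 and untreated differed in 0 members (2.01% of all genes) and T-PNU and T-DM1 in 6 again (39.9% of all genes).

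Compared with trastuzumab, 0 members were called after either conjugate over 24 libraries, with 0.00588% of all genes called for T-PNU and 0.647% for T-DM1. The unadjusted limma p was under 0.05 for 5 members with T-PNU (19.5% of all genes) and 6 members with T-DM1 (15.3% of all genes), and the exact permutation p for 3 (15.9%) and 4 (19.3%). The largest difference was that of Vcam1, which ran from 12.79 to 13.63 after trastuzumab with a median of 13.33. Vcam1 after T-PNU differed from this by -0.77 on the log2 scale (SE 0.21, limma adjusted p = 0.132, exact permutation p = 0.00866). Over the 20 libraries of the heatmaps 5 members were called for T-PNU against trastuzumab, Pecam1 (0.69), Kdr (0.71) and Tek (0.78) higher and Vcam1 (-0.94) and Vegfb (-0.58) lower, on a background of 28% of all genes called, while T-DM1 against trastuzumab gave 0 (0.812% of all genes).

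A single test per gene for any difference among the 4 groups called Kdr (limma adjusted p = 0.0213), Vegfb (0.0210), Tek (0.0283) and Pecam1 (0.0481), that is 4 of 10 members on a background of 18.8% of all genes. The other members had adjusted p-values from 0.0517 for Vcam1 to 0.763 for Vegfc. Over the 20 libraries of the heatmaps the same test called 6 members, these 4 and Vcam1 (limma adjusted p = 0.00718) and Icam1 (0.00943), on a background of 40.8% of all genes. Without T-PNU H1 the count fell to 1, with 8.97% of all genes called. It was 2 without T-PNU D2 (14.5%), T-DM1 E3 (10.9%), T-DM1 F3 (8.45%) or T-DM1 G3 (12.8%).

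Mice of the same group also differed from each other, and these differences put most members in blocks that varied together. Deviations from group means were correlated over the 24 libraries for the 45 pairs of members, with 100000 permutations within groups and adjustment over the pairs. The adjusted p for Pearson's r was under 0.05 in 23 pairs, 19 positive and 4 negative. The share of all gene pairs that passes this test was not computed, so the count describes these members alone. Cdh5 and Emcn were closest (r = 0.95, rho = 0.93), followed by Kdr and Flt1 (r = 0.85, rho = 0.83), Cdh5 and Tek (r = 0.85, rho = 0.88) and Emcn and Tek (r = 0.82, rho = 0.83). The permutation p for r was 1e-05 for the 3 pairs among Cdh5, Emcn and Tek, the smallest the permutations can give, and 2e-05 for Kdr and Flt1, and that for rho was 1e-05 and 4e-05. These 4 correlations kept r of 0.78 or more without the 2 libraries farthest from the median, for which B1 and C1 were left out for Kdr and Flt1 (r = 0.78). Across these groups of genes, Cdh5 and Kdr also varied together (r = 0.70, rho = 0.76, permutation adjusted p = 0.000777 for r and 0.000225 for rho, r = 0.67 without B3 and E3).

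For Pecam1, r with most of these genes did not pass the test. It was 0.24 with Cdh5 (rho = 0.25, permutation adjusted p = 0.405 and 0.378) and 0.17 with Emcn (rho = 0.14, permutation adjusted p = 0.517 and 0.649). With Tek, r was 0.53 (rho = 0.46, permutation adjusted p = 0.0392 and 0.0767). Pecam1 varied with Icam1 (r = 0.74, rho = 0.68, permutation adjusted p = 0.000394 and 0.00305) and against Vegfb (r = -0.82, rho = -0.85, permutation adjusted p = 0.000112 and 9e-05) and Vcam1 (r = -0.70, rho = -0.76, permutation adjusted p = 0.00127 and 0.00106). Without the 2 farthest libraries, E2 and G2, r was 0.22 with Cdh5, 0.20 with Emcn, 0.46 with Tek, 0.67 with Icam1, -0.83 with Vegfb and -0.77 with Vcam1. Vegfb and Vcam1 varied together (r = 0.70, rho = 0.66, permutation adjusted p = 0.00483 and 0.00858, r = 0.62 without C2 and H1).

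Over the 20 libraries of the heatmaps, 2 of the pairs described here as past the threshold for r no longer passed it. For Vegfb and Vcam1, r was 0.58 (rho = 0.36, permutation adjusted p = 0.0937 and 0.317) and 0.13 without C2 and G1, so this relation rested on a few libraries. For Pecam1 and Tek, r was 0.51 (rho = 0.40, permutation adjusted p = 0.120 and 0.258, r = 0.41 without G2 and H2).

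**Figure D3:**
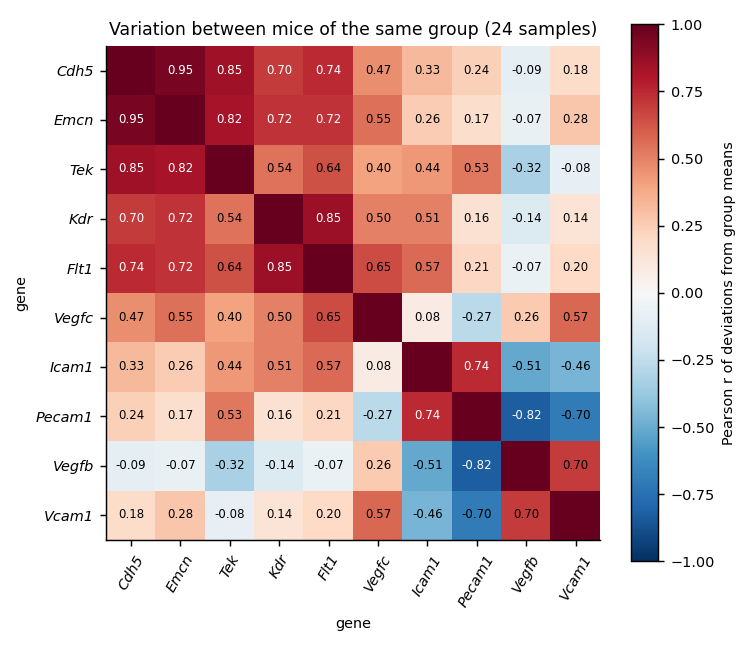
Pearson's r of deviations from group means over 24 libraries for each pair of the 10 genes (colour scale from -1 to 1, values printed in the cells). Cdh5, Emcn, Tek, Kdr and Flt1 form a positive block, and Pecam1 is positive with Icam1 and negative with Vegfb and Vcam1.

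The genes whose deviations were most like those of each member, over the 24 libraries and all genes with a symbol, differed between these blocks. For Cdh5 they were Esam (r = 0.97) and Sparcl1 (0.96), for Emcn Sparcl1 (0.96) and Cdh5 (0.95), and for Tek Jam2 (0.95) and Fbln5 (0.94). Esam and Jam2 encode adhesion molecules of endothelial junctions. For Pecam1 they were Rnf144a (0.97) and Abcb1a (0.96), the latter a drug efflux pump, and for Icam1 Smim5 (0.92) and Nod1 (0.92), a sensor of bacterial cell walls. For Kdr they were Slfn5 (0.91) and Slfn8 (0.91), of the Schlafen family, and for Flt1 Itga1 (0.87) and Igsf6 (0.86). For Vegfb they were Tkfc (0.98) and Rarg (0.98), for Vcam1 Ube2e2 (0.93) and Utp11l (0.92), and for Vegfc Zc3h12c (0.78) and Bicc1 (0.77), the loosest fit of the 10. These were picked as the highest of all genes and are a description.

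Kdr was set against Cdh5 within each library, a view chosen after the values were seen and given without a test. Kdr minus Cdh5 on the log2 scale was 1.84 ± 0.30 (SD, n = 6) in untreated, 1.70 ± 0.30 in trastuzumab, 2.77 ± 0.37 in T-DM1 and 2.30 ± 0.26 in T-PNU libraries. T-DM1 libraries ran from 2.25 to 3.22 and trastuzumab libraries from 1.29 to 1.95, so these groups did not overlap, whereas T-PNU libraries (1.94 to 2.69) overlapped with every other group. Group means of Tek minus Cdh5 were closer together, from -2.54 in trastuzumab to -2.14 in T-PNU libraries.

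**Figure D4:**
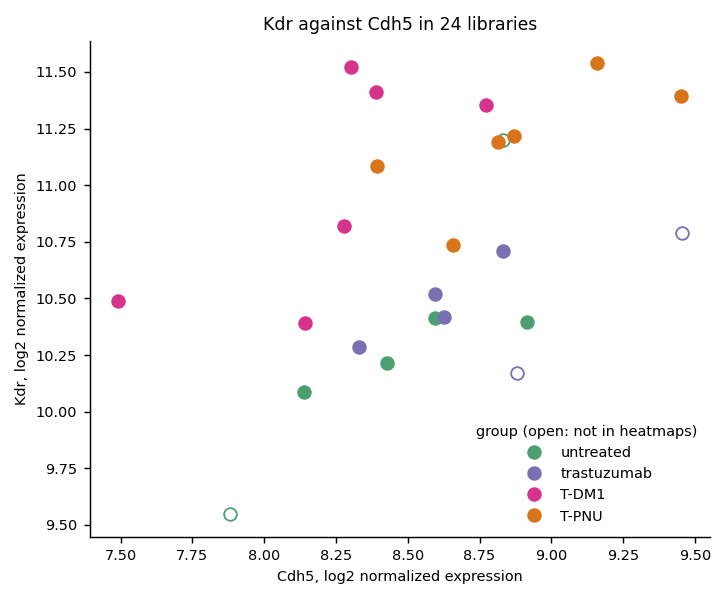
Kdr (vertical axis) against Cdh5 (horizontal axis), both log2 normalized expression, in 24 libraries coloured by group, with open points for the 4 libraries absent from the heatmaps. T-DM1 libraries cover 10.39 to 11.52 for Kdr and 7.49 to 8.77 for Cdh5, and T-PNU libraries cover 10.73 to 11.54 for Kdr and 8.39 to 9.45 for Cdh5.

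Other endothelial genes differed between the conjugates in the direction of Cdh5, Emcn and Tek. Of 24 further endothelial markers, all measured, 15 were higher and 1 was lower after T-PNU than after T-DM1, against 12.4% and 17.4% of all genes. Their median log2 difference was 0.50, against 0.03 over all genes. The largest were Ptprb, the phosphatase that restrains Tek (0.99, SE 0.26), and Vwf, the clotting factor stored by endothelium (0.85, SE 0.18, limma adjusted p = 0.00320). The exception was Ecscr, an endothelial surface protein, which fell by 0.67 (SE 0.20, limma adjusted p = 0.0176). Between T-PNU and untreated libraries 0 of the 24 were called, with a median difference of 0.39, from -0.45 for Ecscr to 0.67 for Vwf, and over the 20 libraries of the heatmaps 6 were higher and 1 lower, where 31.1% of all genes were called. Between T-DM1 and untreated libraries 0 were called, with a median of -0.14.

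Within the VEGF and angiopoietin system, the ligands called were lower after T-PNU than after T-DM1. Of 18 genes measured besides the members, 4 were higher and 6 lower, against 12.4% and 17.4% of all genes, with a median of 0.01. The genes called are named here because of their calls in this comparison. Those that rose were Ptprb, the orphan receptor Tie1 (0.65, SE 0.20), the apelin receptor Aplnr (0.62, SE 0.22) and the hypoxia factor Epas1 (0.56, SE 0.21). Those that fell were ligands, with differences of -1.73 (SE 0.23) for Angpt4, -1.37 (SE 0.30) for Angpt1, -0.84 (SE 0.19) for Pgf, -0.67 (SE 0.24) for Vegfd, -0.62 (SE 0.13) for Vegfa and -0.59 (SE 0.20) for Apln. Thus with Vegfb, 4 ligands of the VEGF family were lower after T-PNU than after T-DM1. Other ligands of this list lay above 0 and were not called, Angpt2 (0.38, SE 0.17), Dll4 (0.37, SE 0.16) and Pdgfb (0.02, SE 0.21). Vegfa ran from 12.84 to 13.52 after T-PNU and from 13.68 to 14.01 after T-DM1, with no overlap, and from 12.99 to 13.73 in untreated libraries. Angpt1, the activating ligand of Tek, ran from 8.97 to 10.97 after T-PNU and from 11.32 to 11.97 after T-DM1, again without overlap. Tie1 and Ptprb stand in both of these lists. Against untreated libraries 0 of the 18 were called after T-PNU, from -0.93 for Angpt1 to 0.60 for Epas1, and 1 after T-DM1, Angpt4 (1.10, SE 0.23, limma adjusted p = 0.00982). Over the 20 libraries of the heatmaps 2 were higher and 6 lower after T-PNU than in untreated tumors, against the same 31.1% of all genes.

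**Figure D5:**
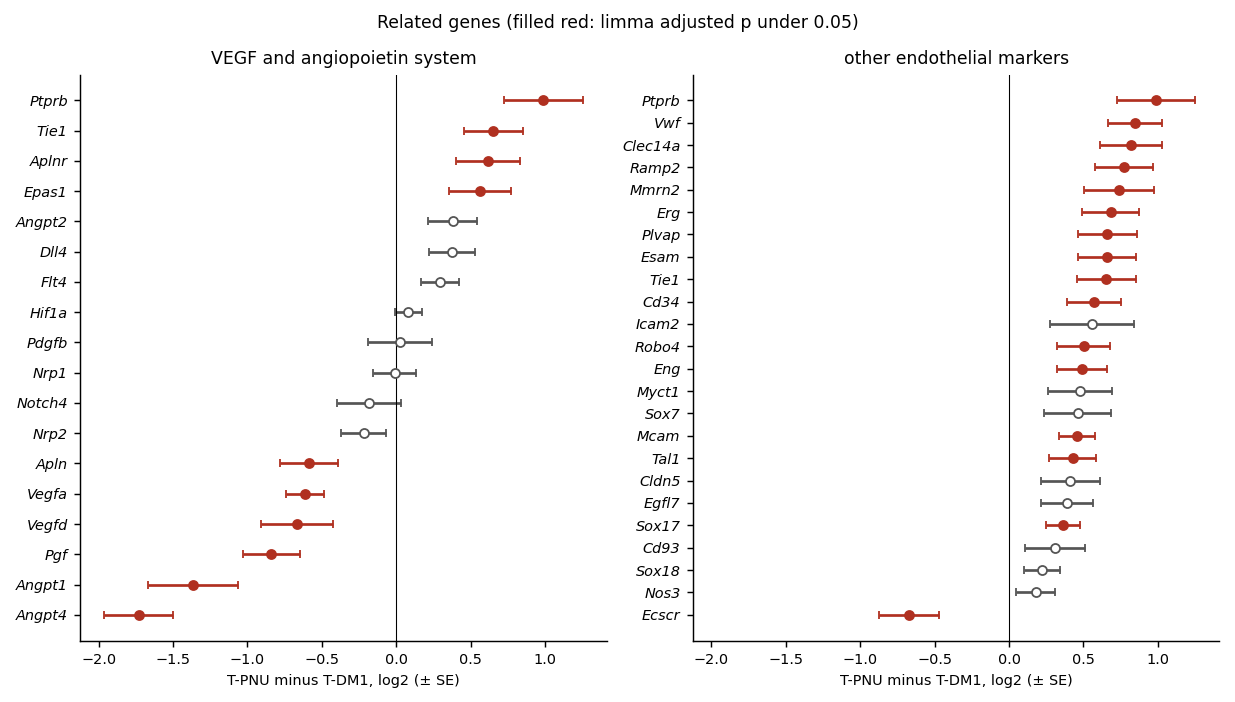
Log2 differences between T-PNU and T-DM1 libraries (horizontal axis, with SE from limma) for 18 genes of the VEGF and angiopoietin system (left) and 24 other endothelial markers (right). Filled red points have an adjusted p under 0.05. On the left 6 ligands lie below 0, from Angpt4 at -1.73, and the ligands Angpt2, Dll4 and Pdgfb lie above 0. On the right 23 of 24 genes lie above 0.

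Partners of the adhesion molecules were higher after T-PNU than after T-DM1 where they passed the test. Of 16 integrins, selectins and junction proteins measured, 5 were higher and 0 lower, with a median of 0.40. Of all genes, 29.8% were called, 12.4% higher and 17.4% lower, so the called share of this list was near that of all genes. The 5 called were Jam2 (0.91, SE 0.22), Itga4 (0.86, SE 0.18), which forms the receptor for Vcam1, Cd34 (0.57, SE 0.18), Itgal (0.56, SE 0.15), which forms the receptor for Icam1, and Jam3 (0.34, SE 0.11). Cd34 also stands in the list of endothelial markers. By contrast, 16 inflammatory targets of NF-kB had a median of 0.02, with Birc3 higher (0.37, SE 0.10) and Nfkb2 lower (-0.27, SE 0.09). Against untreated libraries 0 adhesion partners were called after T-PNU, from -0.43 for Itgb1 to 0.73 for Selp, and 0 of the NF-kB targets, from -0.18 for Cd83 to 0.39 for Ifng. Over the 20 libraries of the heatmaps, 6 adhesion partners were higher and 1 lower after T-PNU than in untreated tumors (31.1% of all genes called), and 10 were higher and 1 lower than after T-DM1 (39.9%).

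Markers of other cells were compared between the same groups. Between T-PNU and T-DM1, 12.4% of all genes were called higher and 17.4% lower. Ptprc lay between 14.27 and 15.24 in untreated and between 14.24 and 15.08 in trastuzumab libraries. Without correction for length, the mean of the fibroblast gene Col1a2 stood above that of Ptprc in T-DM1 libraries (15.87 and 14.33). The same held in untreated (15.02 and 14.67) and trastuzumab libraries (15.23 and 14.65). Only in T-PNU libraries did Col1a2 stand below Ptprc (14.51 and 15.09). After T-PNU as against T-DM1, Ptprc, which encodes CD45 itself, was higher by 0.76 (SE 0.19, limma adjusted p = 0.00569), with 14.75 to 15.52 in T-PNU and 14.01 to 14.61 in T-DM1 libraries. Of 8 fibroblast markers 5 were lower, among them Col1a1 (-1.62, SE 0.29), and their summed level ran from 14.46 to 16.00 after T-PNU and from 16.51 to 17.06 after T-DM1. Of 9 pericyte and smooth muscle markers Pdgfrb (-1.57) and Acta2 (-1.06) were lower, with a summed level from 12.04 to 13.55 after T-PNU and from 13.82 to 14.15 after T-DM1. These genes were the most abundant of the list, in which 5 of 9 differences were above 0. The summed level of 7 epithelial markers ran from 12.60 to 13.71 after T-PNU and from 13.62 to 14.21 after T-DM1, with Krt8 lower (-0.96) and Epcam higher (0.84). Krt8 was the most abundant of them, and 5 of the 7 differences were above 0. Of 10 macrophage and monocyte markers 4 were higher, with a summed level from 18.01 to 18.69 after T-PNU and from 17.39 to 17.96 after T-DM1. The 24 endothelial markers, by comparison, ran from 13.30 to 13.93 after T-PNU and from 13.07 to 13.75 after T-DM1, so their sums overlapped. Each of these sums is weighted to the most abundant genes of its list. The endothelial sum mostly followed Cd93 (means of 12.88 and 12.57, not called), so it says little about the less abundant endothelial markers.

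Of the remaining lists, 2 of 7 neutrophil markers were higher after T-PNU than after T-DM1, 2 of 4 platelet markers lower and 1 of 5 lymphatic markers higher. Of 3 markers of lymph node vessels and stroma 1 was higher and 1 lower. The share over all genes was 12.4% higher and 17.4% lower. Of 9 T cell and 7 B cell markers 0 were called over 24 libraries, with medians of 0.92 and 1.01. Over the 20 libraries of the heatmaps 4 of the 9 T cell markers were higher after T-PNU than after T-DM1 (39.9% of all genes called). In these libraries 9 of 9 were higher than in untreated tumors (31.1% of all genes called), with 0 B cell markers called in either comparison. With quantile normalization of the 24 libraries 1 T cell marker was higher after T-PNU than after T-DM1 (29.1% of all genes called). Summed levels in T-PNU and T-DM1 libraries overlapped for neutrophils (14.47 to 15.47 and 14.09 to 15.11), platelets (11.69 to 12.48 and 11.67 to 12.13), lymphatic markers (12.50 to 13.73 and 13.15 to 13.73), T cells (12.51 to 14.78 and 11.49 to 13.67) and B cells (9.96 to 14.09 and 9.76 to 13.29). For the lymph node markers they did not (10.17 to 10.89 and 11.11 to 11.76). That sum mostly followed Enpp2, with a mean of 11.38 after T-DM1 against 5.34 for Glycam1 and 5.75 for Cxcl13. Enpp2 was lower after T-PNU than after T-DM1 (-1.31), whereas Cxcl13 (0.91) and Glycam1 (1.82, not called) were higher. The lowest value of the whole table was 1.13, so a value above 0 does not show that a marker was detected. The lymphatic marker called, Prox1, was near this floor, with means of 2.56 after T-PNU and 2.25 after T-DM1. Madcam1, Mmrn1, Gp9, Gp1ba, Ccl21a, Ccl19 and Chst4, also listed as markers, were not analysed here. The part of these other cells in the differences of the vascular genes was not tested.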

How the data were processed

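RNA-seq of CD45+ cells from 24 mice was analysed, 6 in each of 4 groups, grouped by the labels. The authors aligned reads with STAR (2.4.2a), counted them per gene with strand with featureCounts (Subread 1.5.0), removed genes with an average count under 5 and compared groups with DESeq2, and the submitters' processing notes name build mm10. The deposited values are log2 expression normalized for library size by the authors. The transformation is not named, and if values were shrunken, differences are smaller than those from counts. Depth is unknown, so no interval for counting error was given, and p-values measure the spread between mice. No count test was run.

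Limma 3.58.1 in R 4.3.3 was fitted to all 16996 genes and 24 libraries, with 4 groups and no covariate (lmFit, contrasts.fit, eBayes with a trend), and p-values were adjusted over all genes. For each member a two-sided exact permutation test was added in Python 3.11.15 with SciPy 1.17.1. A summed level is the log2 of the sum of a list's values taken out of the log scale. Positions and exon lengths came from GENCODE M21, in which 99.6% of identifiers were found. The members and the lists were chosen with earlier results of these data known. Named besides the members were the extremes of each list for T-PNU minus untreated, called genes where 5 or fewer, and 2 nearest genes per member, and further genes called between T-PNU and T-DM1 were named after their values were seen. The limma fit, alone of these steps, was tested on simulated data, with noise that was independent between genes. Alternatives are given in the closing section.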

Additional observations from a re-analysis of the deposited data

Results flagged for a closer look

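Each member was screened in each group for a library far from the other 5, which makes 40 sets of 6 values. Vegfc was the single case. Its level in untreated library B1 was 4.66 on the log2 scale, 0.36 below the nearest untreated library at 5.01, and this gap was 0.628 of the range of the group, just past Dixon's critical value for 6 values. Chance alone flags about 1 in 20 such sets. Library B1, which is absent from the heatmaps of the study, also had the lowest untreated values of Cdh5, Emcn, Kdr, Flt1, Tek and Vcam1.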

How the results depend on the processing

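T-PNU against T-DM1 was the stable comparison. Its count of 6 members was found again with the 20 libraries of the heatmaps (39.9% of all genes called) and quantile normalization (29.1%). Fits of 2 groups (32.8%), sample weights (44.6%) and no trend (30%) also gave 6. So did the exact test, whose share over all genes is not given here. Leaving out each library in turn gave from 4 to 6. The count was 3 among genes above the median level (35.3% of these genes called), where Tek, Emcn, Cdh5 and Vegfc were not tested. It was 1 at the thresholds of the study (1.91% of all genes). Counts of 0 against the other groups depended on the libraries. For T-PNU against untreated the count was 6 with the 20 libraries, 7 with sample weights (34.3% of all genes called), 4 by the exact test and from 0 to 4 when a library was left out, with 4 without C1 (17.2% of all genes called) and 1 without G1 (5.94%) or E2 (1.62%). For T-DM1 against untreated it was 2 with weights (19.4%), 4 by the exact test and from 0 to 1 when a library was left out, with 1 without C1 (3.54%) or G3 (4.82%). For T-PNU against trastuzumab it was 5 with the 20 libraries, 5 with weights (13.3%) and 3 by the exact test, and for T-DM1 against trastuzumab 1 with weights (7.25%) and 4 by the exact test. For any difference among the groups it was 8 with weights (50.9%) and from 1 to 6 when a library was left out, lowest without H1 (8.97%) and highest without C1 (28.1%). The exact test was unadjusted, and the cause of the other changes was not tested. Correlated pairs numbered 20 with the 20 libraries and 19 by Spearman's rho, against 23. With quantile normalization 13 of the other endothelial markers were higher and 1 lower after T-PNU than after T-DM1 (29.1% of all genes called).

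Differences that changed sign were near 0 and not called. With the 20 libraries, Emcn (-0.037) and Tek (-0.12) changed sign for trastuzumab against untreated, and Flt1 (0.054) and Vegfc (-0.031) for T-DM1 against trastuzumab. With weights, Tek was -0.0090 in the former and Flt1 0.10 in the latter. Leaving out a library moved differences across 0 for T-DM1 against untreated (Flt1 -0.0077 to 0.24, Vegfc -0.082 to 0.036, Vcam1 -0.22 to 0.045), trastuzumab against untreated (Pecam1 -0.090 to 0.15, Emcn -0.039 to 0.17, Tek -0.018 to 0.28, Vegfc -0.11 to 0.0077), T-PNU against trastuzumab (Cdh5 -0.0080 to 0.24, Emcn -0.0022 to 0.27) and T-DM1 against trastuzumab (Flt1 -0.087 to 0.089, Vegfc -0.011 to 0.068). No paired analysis was possible because the labels give no replicate numbers shared between groups. Depth is unknown, and 6 mice per group limit the precision.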
